A study of Mus musculus with 12 samples.

Results

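Genes of striated muscle, 6 in number, were followed in the hearts of 12 mice: the ubiquitin ligase genes Fbxo32, Trim63, Trim55, Trim54 and Asb2, and Ky, which codes for a protein of the sarcomere's Z-disc. They were picked by name, and all 6 were present among the 13552 genes of the expression table and passed the filter on low values that 11240 genes passed. Asb2 and Ky were put on the list because they were among the largest decreases in KI hearts after TAC, so comparisons that contain those hearts are described for these genes without a test. The other 4 members were tested in every comparison.

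Transverse aortic constriction (TAC) tightens a suture around the aortic arch, so that the left ventricle has to pump against a higher pressure, and the sham operation opens the chest without tightening the aorta. Hearts were taken 9 h after surgery from male mice, 3 in each of 4 groups: sham and TAC of the wild type (WT), and sham and TAC of mice with the Bcl-xL S14A knock-in (KI). The mice were 8 to 10 weeks old at surgery and on a background given as C57BL/6 in the labels and C57BL/6J in the methods. In KI mice codon 14 of the endogenous Bcl-xL gene codes for alanine in place of serine in every cell type, the selection cassette used to make the allele having been removed by crossing to mice that carry CMV-Cre. The labels do not give their zygosity, and by the study's text homozygous mice were used after its first experiments. WT mice were bought from a supplier, and the methods do not call them littermates of the KI mice. RNA came from heart tissue and not from sorted cells, and the sources used here do not say which chambers were included. Fewer cells of a type and less RNA per cell thus cannot be told apart in any value that follows.

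Ubiquitin ligases choose the proteins that a cell tags with ubiquitin, most often for breakdown by the proteasome. Fbxo32 (atrogin-1 or MAFbx) is an F-box protein that brings substrates to an SCF complex built on cullin 1, and Asb2 is an ankyrin repeat and SOCS box protein that brings substrates, among them filamins, to a complex built on cullin 5. Trim63, Trim55 and Trim54 are the muscle RING finger proteins MuRF1, MuRF2 and MuRF3, which act without a cullin, sit at sarcomeres and microtubules and recognise proteins of the contractile apparatus. Ky, the gene mutated in the kyphoscoliosis mouse, codes for a protein with a transglutaminase-like domain that binds filamin C. Fbxo32 and Trim63 are best known as genes that rise in wasting skeletal muscle, where FoxO factors and glucocorticoids act on them.

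Depth was 23650191 to 32455166 reads on genes per heart, and the ranges of WT TAC hearts (25715285 to 29608542) and KI TAC hearts (30298178 to 31676887) did not overlap. All 10 cardiomyocyte markers were measured, with a summed level of 14647 to 25363 RPKM and overlapping ranges in the 4 groups. The median difference of the single markers was log2 -0.65 between WT TAC and WT sham (1 of 10 called lower, 6 at an unadjusted p under 0.05), 0.056 between KI TAC and KI sham (1 called lower) and 0.71 between KI TAC and WT TAC (3 called higher), beside 0.035, -0.10 and -0.12 for all genes. Tnni3, the inhibitory subunit of cardiac troponin, had a mean of 567 RPKM in WT sham, 309 in WT TAC, 595 in KI sham and 597 in KI TAC hearts. Other markers went the opposite way: the mean of Actc1 was 9724 RPKM in WT sham, 13761 in WT TAC and 11126 in KI TAC hearts, and Ryr2 and Pln had lower means in KI TAC (82.4 and 111) than in WT TAC hearts (96.7 and 138). Of 10 skeletal muscle markers 2 were read, and they summed to between 0.385 and 2.41 RPKM. The other 8 were not analysed here. Of 6 atrial markers 2 were read, with sums of 34.0 to 63.4 RPKM over the 4 groups, and none was called in any comparison. Summed blood cell markers (8 of 10 measured) were 141 to 197 RPKM in WT TAC and 91.3 to 108 RPKM in KI TAC hearts. These ranges did not overlap. The largest of these markers was Lyz2, with a mean of 114 RPKM in WT TAC and 63.4 RPKM in KI TAC hearts. S100a8 (1.80 and 3.68 RPKM), S100a9 (2.92 and 7.16) and Itgam (1.13 and 1.23) had higher means in KI TAC hearts, and the rest lower means. Summed fibroblast markers (7 of 7) were 147 to 822 RPKM in WT TAC and 104 to 187 RPKM in KI TAC hearts. WT sham hearts had 65.7 to 112 RPKM of blood cell markers, below every WT TAC heart (5 of 7 tested called higher after TAC), and 120 to 192 RPKM of fibroblast markers. Summed smooth muscle and pericyte markers (6 of 6) were 145 to 158 RPKM in WT sham and 183 to 267 RPKM in WT TAC hearts, also without overlap. KI sham hearts had 71.2 to 96.4 RPKM of blood cell markers (3 of 7 tested called higher and 1 lower after TAC), 146 to 255 of fibroblast markers (1 of 7 called lower) and 124 to 200 of smooth muscle and pericyte markers (none of 6 called), each range overlapping with that of KI TAC hearts, the last of which was 150 to 209. The part of these cell types, cardiomyocytes included, in the differences between the TAC groups and between TAC and sham hearts was not tested. The median gene differed by log2 -0.10 between KI TAC and KI sham hearts and by -0.12 between KI TAC and WT TAC hearts, shifts that median-ratio scaling of the libraries took away.

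RPKM values are per kilobase of exon, so levels can be set side by side between genes. In WT sham hearts the order was Asb2 (449 ± 68.7 RPKM, SD, n = 3), Trim54 (182 ± 44.3), Trim63 (42.6 ± 10.7), Fbxo32 (28.0 ± 9.31), Trim55 (15.6 ± 0.285) and Ky (6.16 ± 1.34). Only the neighbours Trim63 and Fbxo32 overlapped in that order. Asb2 stood between places 54 and 88 among the 13552 genes in WT sham hearts. After TAC in KI hearts the order of means was Trim54 (262 ± 60.0), Asb2 (88.3 ± 41.8), Trim63 (36.2 ± 20.6), Trim55 (18.2 ± 4.09), Fbxo32 (14.9 ± 7.98) and Ky (0.428 ± 0.236). There Trim63 overlapped with Trim55, and Trim55 with Fbxo32. Asb2 had moved to places 255 to 621.

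**Figure D1:**
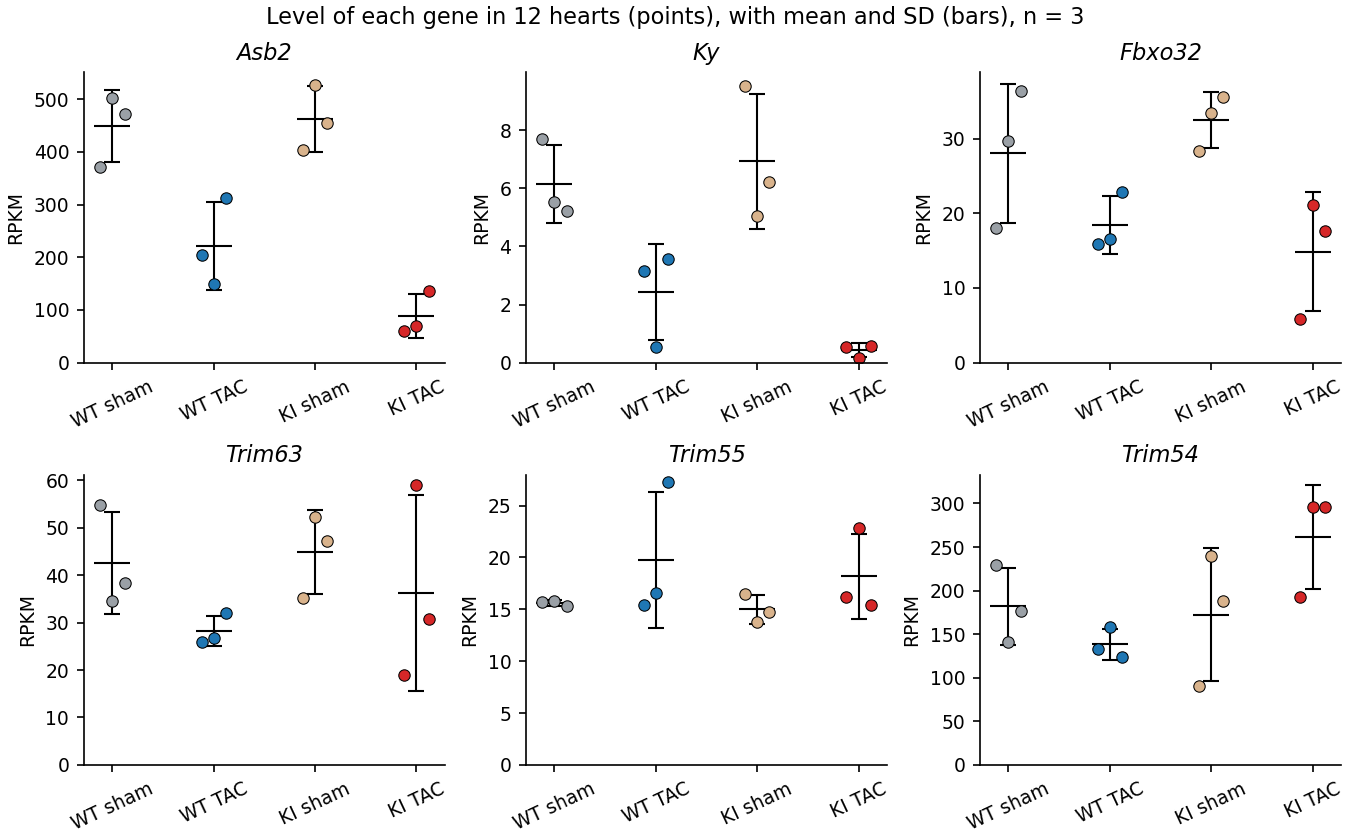
Level in RPKM (vertical axes, starting at 0) of the 6 genes in each of 12 hearts (points), with the group mean and SD (bars, n = 3), for the sham and TAC groups of both genotypes. All KI TAC points of Asb2 (59.8 to 136) and Ky (0.156 to 0.583) lie below every sham point, whereas the mean of Trim54 is highest in KI TAC hearts (262), with 1 of their 3 points (192) among the sham points.

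Asb2 (ENSMUSG00000021200) lies on the minus strand of chr12:103321142-103356001 in GRCm38 and has 2 coding transcripts with separate starts. Its level was 372, 503 and 472 RPKM in WT sham hearts 1, 2 and 3, and 403, 527 and 456 RPKM in KI sham hearts 1, 2 and 3. In WT TAC hearts 7, 9 and 10 it was 205, 149 and 312 RPKM, below every sham heart. In KI TAC hearts 5, 6 and 7 it was 59.8, 68.8 and 136 RPKM, below every other heart. Asb2 fell after TAC in WT hearts, by 1.07 on the log2 scale (SE 0.31, limma, Benjamini-Hochberg adjusted p = 0.0428), which was 2.02-fold on the mean RPKM. In KI hearts its mean after TAC was 5.23-fold below that of KI sham hearts (log2 -2.46, the third lowest of the 11240 genes tested), and it was 2.51-fold below that of WT TAC hearts (log2 -1.35). These 2 values belong to the choice of the gene and have no test.

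The call in WT hearts was thin. It was lost without WT sham heart 1 (log2 -1.20, adjusted p = 0.0565), 2 (-0.98, 0.127) or 3 (-1.03, 0.116), and without WT TAC heart 7 (-1.04, 0.124) or 9 (-0.81, 0.150), and also with quantile normalization (-0.89, 0.109). In all of these fits Asb2 remained lower in WT TAC hearts, between log2 -1.35 and -0.81 without 1 heart. Sham hearts of the 2 genotypes overlapped, with a difference of log2 0.044 (95% confidence interval -0.63 to 0.72, adjusted p = 1.00).

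The 250 bases before each of the 2 RefSeq starts of Asb2 are given because the deposited values are summed over the gene and cannot separate the 2 transcripts. The first lies before the start of the longer transcript and the second within the gene, in an intron of that transcript. Both are read on the minus strand of GRCm38.p6, 5′ to 3′, and capitals mark a CArG box, the sequence that serum response factor binds.
Asb2 before the first start, chr12:103356002-103356251: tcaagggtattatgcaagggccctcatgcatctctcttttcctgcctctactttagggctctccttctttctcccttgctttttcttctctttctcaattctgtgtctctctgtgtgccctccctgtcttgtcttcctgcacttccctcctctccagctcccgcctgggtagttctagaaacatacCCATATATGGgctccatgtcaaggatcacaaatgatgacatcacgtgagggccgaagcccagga
Asb2 before the second start, chr12:103338391-103338640: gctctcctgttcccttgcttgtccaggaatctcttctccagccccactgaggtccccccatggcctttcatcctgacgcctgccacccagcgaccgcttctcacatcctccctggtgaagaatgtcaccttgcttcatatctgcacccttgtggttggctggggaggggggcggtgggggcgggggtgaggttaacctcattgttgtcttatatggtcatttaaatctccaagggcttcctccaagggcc
The CArG box begins 64 bases before the first start. It was found in 1.47% of the 32851 mouse promoters searched over the same 250 bases, and the second window held none. A match is a description of letters and not evidence of binding.

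Ky (ENSMUSG00000035606) lies on the plus strand of chr9:102505750-102546239 and was the least abundant member. It had 7.69, 5.55 and 5.23 RPKM in WT sham hearts 1, 2 and 3, and 9.53, 5.06 and 6.22 RPKM in KI sham hearts 1, 2 and 3. WT TAC hearts 7, 9 and 10 had 3.16, 0.540 and 3.58 RPKM, all below the sham hearts. KI TAC hearts 5, 6 and 7 had 0.545, 0.156 and 0.583 RPKM, also below every sham heart but overlapping with WT TAC heart 9. These levels rest on 752 to 1452 reads per WT sham heart, 94 to 550 per WT TAC heart and 29 to 108 per KI TAC heart. Ky reached 1 RPKM in none of the KI TAC hearts.

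Ky fell after TAC in WT hearts, by 1.20 on the log2(RPKM + 1) scale (SE 0.34, limma, adjusted p = 0.0359), and the mean RPKM was 2.54-fold lower. A pseudocount of 1 understates the change of a gene at this level: with a pseudocount of 0.1 the difference was log2 -1.64 (adjusted p = 0.0707), and with limma-voom on recovered reads -1.76 (adjusted p = 0.0530). Without WT TAC heart 9 the difference was log2 -0.70 (adjusted p = 0.0928). The call was also lost without WT sham heart 1 (-1.05, 0.118), 2 (-1.26, 0.0779) or 3 (-1.29, 0.0691), and when the 2 groups were fitted alone (-1.20, 0.0754). In KI hearts the mean of Ky after TAC was 16.2-fold below that of KI sham hearts (log2 -2.45, the fourth lowest gene, or -3.81 with the smaller pseudocount and -4.18 with limma-voom), without a test. Against WT TAC hearts it was 5.67-fold lower (log2 -1.13, or -2.03 and -2.28 in those settings). Even the lowest sham heart stood 8.68-fold above the highest KI TAC heart for Ky and 2.72-fold for Asb2. In sham hearts Ky differed between genotypes by log2 0.13 (95% interval -0.60 to 0.86, adjusted p = 1.00).

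Fbxo32 (ENSMUSG00000022358), on the minus strand of chr15:58175879-58214932, was lower after TAC in KI hearts. KI sham hearts 1, 2 and 3 had 28.4, 33.5 and 35.6 RPKM, and KI TAC hearts 5, 6 and 7 had 5.86, 21.1 and 17.7 RPKM, so that the groups did not overlap and heart 5 stood lowest. WT sham hearts 1, 2 and 3 spread from 18.0 over 29.7 to 36.4 RPKM, and WT TAC hearts 7, 9 and 10 had 15.9, 16.6 and 22.9 RPKM, which overlap with WT sham heart 1. Fbxo32 fell in KI hearts by 1.24 on the log2 scale (SE 0.37, adjusted p = 0.0264), a 2.18-fold lower mean. Without KI TAC heart 5 the difference was log2 -0.72 (adjusted p = 0.0879), and the call was also lost without KI sham heart 2 (-1.21, 0.0668) or 3 (-1.17, 0.0874). In WT hearts the difference was log2 -0.54 (SE 0.37, 95% interval -1.33 to 0.24, adjusted p = 0.356). The effects of TAC in the 2 genotypes differed by log2 -0.70 (SE 0.52, adjusted p = 0.530 for the interaction), so a difference between genotypes was not shown. KI TAC and WT TAC hearts differed by log2 -0.44 (adjusted p = 0.438), a difference that turned to 0.081 without KI TAC heart 5. An antisense gene that shares 186 exon bases with Fbxo32 had at most 1.53% of its RPKM in any heart.

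Trim63 (MuRF1, ENSMUSG00000028834) lies on the plus strand of chr4:134315120-134329629. It is given with the 250 bases before its RefSeq start because they hold the FoxO motif TGTTTAC and a TATA box (TATAAA), both in capitals on the plus strand of GRCm38.p6.
Trim63 before the start, chr4:134314870-134315119: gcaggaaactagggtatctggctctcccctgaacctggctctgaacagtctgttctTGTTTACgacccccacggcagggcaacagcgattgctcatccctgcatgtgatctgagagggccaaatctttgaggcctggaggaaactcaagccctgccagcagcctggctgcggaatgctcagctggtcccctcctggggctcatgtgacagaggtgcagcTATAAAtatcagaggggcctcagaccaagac
The FoxO motif begins 194 bases and the TATA box 31 bases before the start. Searched on both strands, they were found in 3.17% and 12.4% of the 32851 promoters. RefSeq gave promoters for 4 of the 6 members, 5 in all, but the window of Ky lies inside the annotated gene and is not described. In the windows of Asb2 and Trim54 neither motif was present. A MEF2 site (2.92% of promoters) was in none of the windows of Trim63, Trim54 and Asb2. The same holds for the glucocorticoid response element, searched as the half-sites AGAACA and TGTTCT with any 3 bases between them (0.00913% of promoters). With 1 mismatch allowed, a search added after seeing the data, 0.14% of promoters held it, the Trim63 window among them, where it begins 209 bases before the start and ends next to the FoxO motif, and the windows of Trim54 and Asb2 did not. The E-box CANNTG, which 66.2% of promoters hold, was in each of the Trim63, Trim54 and Asb2 windows but that of the second Asb2 start.

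Trim63 had 54.7, 34.7 and 38.3 RPKM in WT sham hearts 1, 2 and 3, and 26.0, 26.8 and 32.0 RPKM in WT TAC hearts 7, 9 and 10, so that each WT TAC heart was below each WT sham heart. The difference of log2 -0.55 (SE 0.32, 95% interval -1.24 to 0.14) did not pass the test (adjusted p = 0.281). KI sham hearts 1, 2 and 3 had 35.1, 52.3 and 47.1 RPKM. KI TAC hearts 5, 6 and 7 ranged widely, with 18.9, 59.0 and 30.7 RPKM, the lowest and the highest value of all 12 hearts. Accordingly the difference in KI hearts was log2 -0.43 (SE 0.32, adjusted p = 0.357). Without KI TAC heart 6 it passed the test at log2 -0.85 (adjusted p = 0.0462). Between KI TAC and WT TAC hearts Trim63 differed by log2 0.21 (95% interval -0.48 to 0.90, adjusted p = 0.695), which was -0.21 without KI TAC heart 6.

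Trim55 (MuRF2, ENSMUSG00000060913, plus strand of chr3:19644474-19692421) was the steadiest member. It had 15.3 to 15.8 RPKM in WT sham and 13.7 to 16.5 RPKM in KI sham hearts. WT TAC hearts 7, 9 and 10 had 15.4, 16.6 and 27.3 RPKM, and KI TAC hearts 5, 6 and 7 had 16.2, 22.9 and 15.4 RPKM, with 1 heart of each TAC group above all the others. TAC differed from sham by log2 0.28 in WT (95% interval -0.19 to 0.74, adjusted p = 0.430) and 0.24 in KI hearts (-0.22 to 0.71, adjusted p = 0.440). The TAC groups differed by log2 -0.091 (adjusted p = 0.804), a sign that turned to 0.061 with median-ratio scaling.

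Trim54 (MuRF3, ENSMUSG00000062077, plus strand of chr5:31116712-31137630) had its highest mean level in KI TAC hearts. Those hearts, 5, 6 and 7, had 192, 296 and 296 RPKM, all above WT TAC hearts 7, 9 and 10 with 133, 158 and 124 RPKM. WT sham hearts 1, 2 and 3 had 229, 141 and 176 RPKM, and KI sham hearts 1, 2 and 3 had 89.9, 240 and 188 RPKM, so the sham hearts spread over much of the range. KI TAC stood above WT TAC by log2 0.89 (SE 0.32, 95% interval 0.21 to 1.58), which missed the threshold after adjustment over 11240 genes (limma, adjusted p = 0.0839). With median-ratio scaling the difference was log2 1.05 and passed the test (adjusted p = 0.0487), and with quantile normalization it was 0.63 (adjusted p = 0.151). TAC against sham gave log2 0.68 in KI (SE 0.32, adjusted p = 0.139) and -0.37 in WT hearts (SE 0.32, adjusted p = 0.476). The difference between those 2 effects was log2 1.06 (SE 0.45, limma, adjusted p = 0.305). An antisense gene shares 382 exon bases with Trim54 and had 1.05 to 1.72 RPKM in WT TAC and 3.71 to 7.52 RPKM in KI TAC hearts, at most 2.54% of Trim54 in any heart. The strand setting of the counting is not given in the sources used here, and the antisense gene's part in the difference was not tested.

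**Figure D2:**
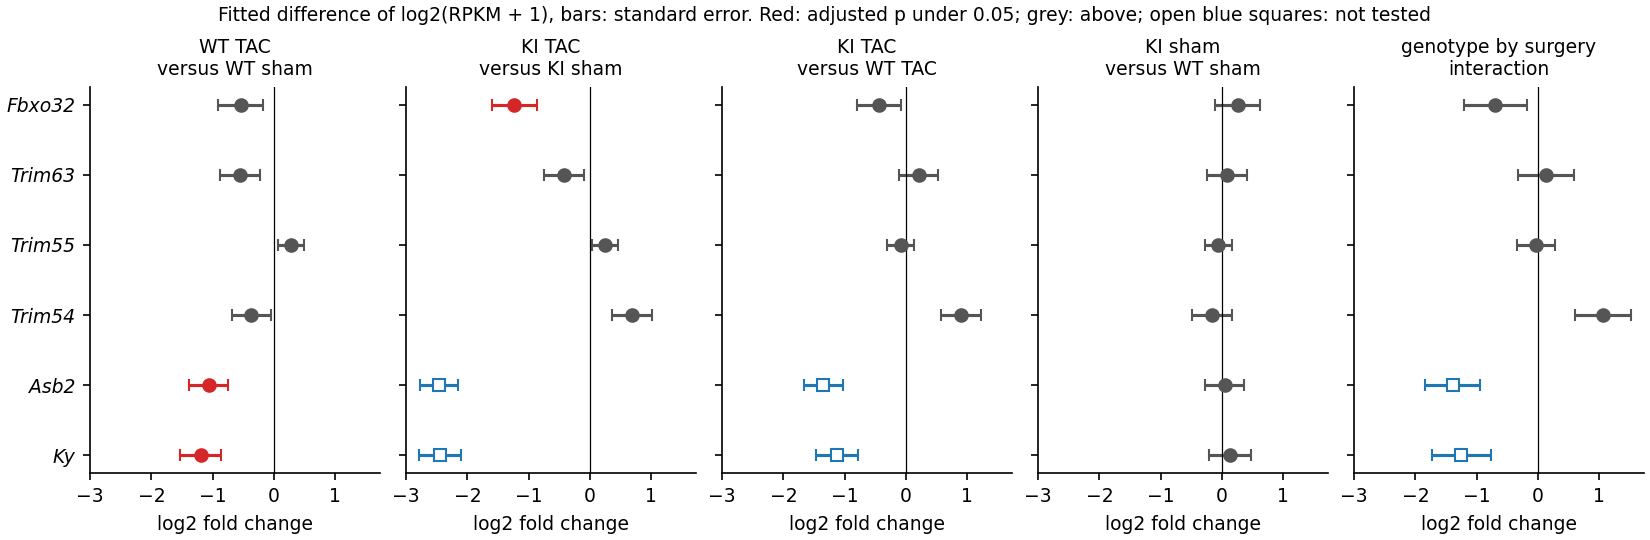
Fitted differences of log2(RPKM + 1) with standard errors (horizontal axes, log2 fold change) for the 6 genes in 5 comparisons of 12 hearts. Asb2 and Ky (WT TAC versus WT sham) and Fbxo32 (KI TAC versus KI sham) are red, past an adjusted p of 0.05. Open squares mark Asb2 and Ky where KI TAC hearts chose them and no test applies.

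In WT hearts, then, 2 of 6 members fell and none rose. Of all genes tested 4.6% fell, 6.96% rose and 11.6% passed the test in either direction. The 2 members were Asb2 and Ky, which were chosen for falling after TAC in KI hearts, and none of the other 4 was called. A count of 2 of 6 is thus not a share of genes picked without regard to TAC. In 3 members (Trim63, Asb2 and Ky) every WT TAC heart was below every WT sham heart, as in 15% of all genes. Of the 4 members tested between KI TAC and KI sham hearts, 1 fell and none rose, where 14.7% of genes fell, 8.57% rose and 23.3% were called. KI TAC hearts were below all KI sham hearts for Fbxo32, Asb2 and Ky, the last 2 by the choice of members, and for 24.7% of all genes. Between KI TAC and WT TAC hearts limma and limma-voom called 0 of 4 members (1 at an unadjusted p under 0.05), where limma called 11% of genes, 2.92% higher and 8.13% lower. Trim54 was the member with KI TAC hearts all higher, as in 10.1% of genes. Asb2 was the one with KI TAC hearts all lower, as in 19.4%, but it was chosen on those hearts. Between the sham groups 0 of 6 members and 0.0178% of genes were called, and the smallest unadjusted p of a member was 0.497. The interaction called 0 of 4 members and 0 genes in both tools. At an unadjusted p under 0.05 it held 1 member and 1668 genes in limma. KI TAC against WT TAC shares its hearts with both TAC to sham comparisons, so the 3 sets of values are not independent.

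Ratios within a heart do not depend on how libraries are scaled. The ratio of Asb2 to Trim54 was 1.62 to 3.57 in WT sham, 0.942 to 2.52 in WT TAC hearts, with a median of 2.42 and a highest value of 4.48 in KI sham hearts. In KI TAC hearts it was 0.232 to 0.460, below the other 9 hearts. Trim54 made up 73.6% to 76.7% of the summed MuRF level in WT sham, 67.6% to 78.5% in WT TAC, 63.5% to 78.4% in KI sham and 78.3% to 86.5% in KI TAC hearts, so that the lowest KI TAC heart overlapped with WT TAC and KI sham hearts. The ratio of Asb2 to the filamin gene Flnc, which codes for the filamin of muscle Z-discs, was 2.46 to 3.80 in WT sham, 0.124 to 0.804 in WT TAC, 2.29 to 4.67 in KI sham and 0.0145 to 0.161 in KI TAC hearts. Both groups of TAC hearts were below all sham hearts in that ratio, and WT TAC heart 9 overlapped with KI TAC heart 7. Asb2 was chosen on its fall in KI TAC hearts, so its low ratios there belong in part to the choice of members. Flnc itself rose after TAC in both genotypes, as given below. These ratios and shares are given without a test.

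Likeness of pattern was measured over the 12 hearts as the root mean square difference between centred log2 values, 0 for identical patterns, and it is a description that contains the KI TAC hearts. Asb2 and Ky, both chosen on the KI TAC hearts, were the nearest pair among the members (0.45), followed by Fbxo32 and Trim63 (0.49). Trim54 and Ky were the farthest (1.40). Outside the members, Asb2 was nearest to Spata2l (0.32), Myorg (0.33) and Kcnh2 (0.33), the last a cardiac potassium channel gene whose mean was 66.6 RPKM in WT sham, 38.8 in WT TAC, 70.8 in KI sham and 20.2 in KI TAC hearts. Ky was nearest to Gal3st3 (0.23), Mmp15 (0.26) and Kcnn2 (0.33). Mmp15, a membrane-bound metalloproteinase gene, had mean levels of 116, 65.6, 122 and 22.7 RPKM in the same order of groups. Fbxo32 was nearest to Gpam (0.25), Nceh1 (0.28) and Bdh1 (0.30), 3 genes of lipid and ketone metabolism. Trim54 was nearest to Psmd4 (0.17), a ubiquitin receptor of the proteasome, and to Sod1 (0.18) and Ndufa3 (0.19). The nearest genes of Trim63 were Nub1, Asrgl1 and Hsd17b4 (0.22 to 0.23), and those of Trim55 were Atp11b, Cab39l and Sypl (0.11 to 0.13).

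**Figure D3:**
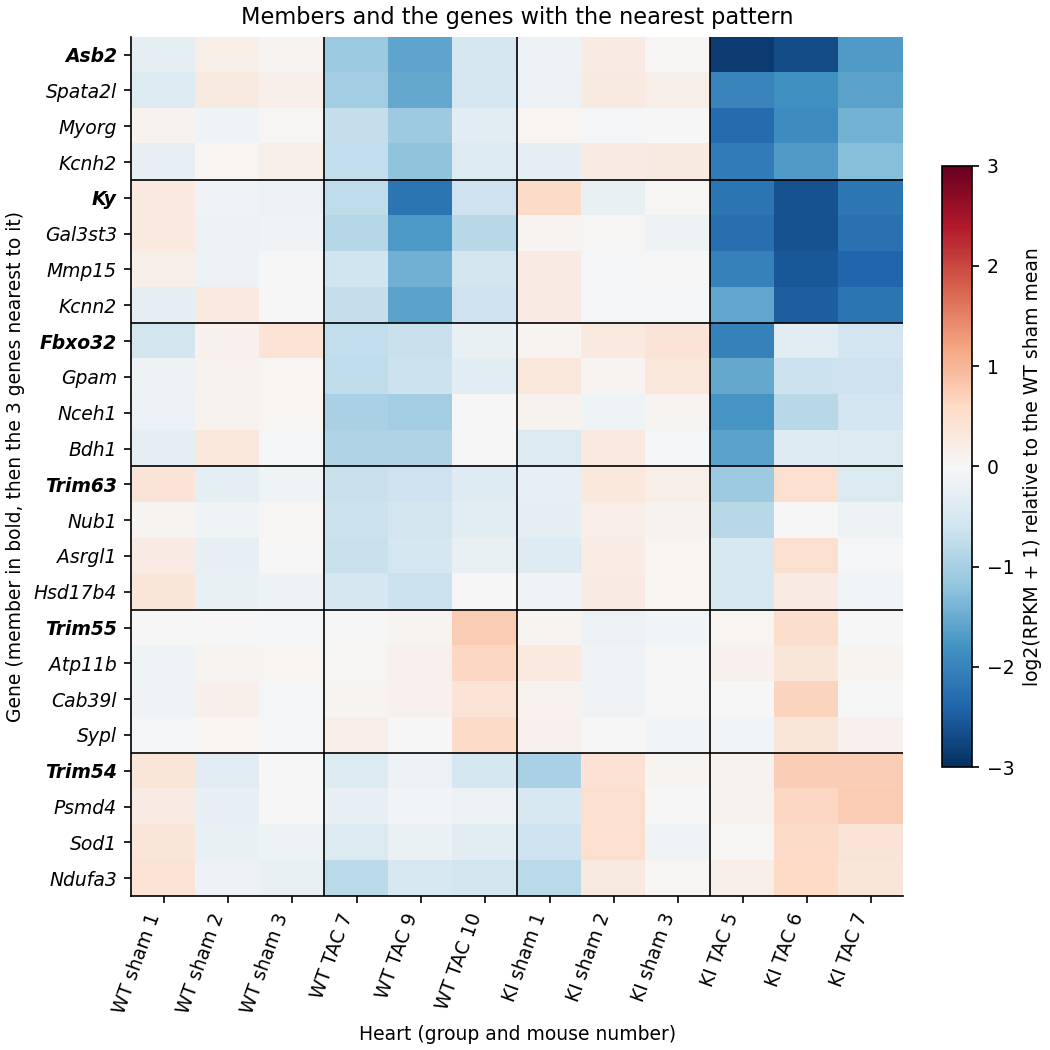
log2(RPKM + 1) relative to the WT sham mean (colour, blue lower and red higher) of the 6 members in bold and the 3 genes nearest to each (rows) in 12 hearts (columns, by group and mouse number). The rows of Asb2 and Ky and their nearest genes are blue in all KI TAC hearts, and among WT TAC hearts 9 is the bluest in them. Trim54 and its nearest genes are red in KI TAC hearts 6 and 7.

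Over all genes tested, 11.6% were called in WT hearts, 23.3% in KI hearts and 11% between the TAC groups. Each list below stands beside these shares. The machinery that Fbxo32 and Asb2 need was measured in 7 subunits (Skp1, Cul1, Rbx1, Cul5, Elob, Eloc and Rnf7). None of the 7 was called by limma or limma-voom in any of the 5 comparisons, and at an unadjusted p under 0.05 there was 1, between KI TAC and WT TAC hearts. Cul5, the scaffold of the Asb2 complex, had 4.23 ± 0.811 RPKM in WT sham, 4.98 ± 0.916 in WT TAC, 4.96 ± 0.771 in KI sham and 4.76 ± 0.598 in KI TAC hearts.

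Other genes of the ASB family code for proteins that share the SOCS box with Asb2. Of 17 further family members 14 were tested, and 4 of the 14 fell, none rose and 10 were not called in WT hearts, with a list median of log2 -0.22 beside 0.035 for all genes. Asb10 fell from 54.0 ± 4.31 to 17.2 ± 11.5 RPKM (log2 -1.80, adjusted p = 0.00726), and Asb14 from 31.6 ± 2.69 to 10.5 ± 2.49 RPKM (log2 -1.52, adjusted p = 0.00262). Asb15 (log2 -1.01) and Asb16 (-0.76) were the others, and all but Asb15, which was called in 3 of 12 alternative settings, were called in every one. Asb16 went from 1.38 to 0.396 RPKM, a level at which a pseudocount of 1 understates the change. Its difference reached log2 -1.78 in the alternative settings. In KI hearts 6 of 14 fell, none rose and 8 were not called (median -0.27 beside -0.10). The 6 were Asb10 (-1.84), Asb18 (-1.65), Asb14 (-1.41), Asb15 (-1.35), Asb13 (-0.79) and Asb16 (-0.67), each in all 12 settings. The pseudocount understates the change of Asb16 here too, and its difference in KI hearts reached log2 -1.62 in the alternative settings. Asb18 was the family member that fell between WT TAC and KI TAC hearts, from 11.2 ± 2.67 to 3.89 ± 0.315 RPKM (log2 -1.29, adjusted p = 0.00834). These genes were not used to choose Asb2, but they come from the same hearts.

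Among 21 other ubiquitin ligases and substrate adaptors of muscle, 1 rose and 1 fell in WT hearts, where 11.6% of all genes were called. In KI hearts 3 rose and 8 fell (median log2 -0.24 beside -0.10), where 23.3% of all genes were called. Klhl41, a kelch protein that binds nebulin, rose in both, from 18.7 ± 2.73 to 66.9 ± 28.8 RPKM in WT (log2 1.69, adjusted p = 0.0113) and in KI hearts from 19.9 to 22.4 RPKM over sham to 144 to 430 RPKM over TAC hearts (log2 3.54, adjusted p = 6.50e-05). Its level also differed between the TAC groups, with KI above WT (log2 2.03, adjusted p = 0.00802). Rnf207, a cardiac RING finger protein, fell by 1.04 (WT) and 2.01 (KI) on the log2 scale. Klhl38 (log2 -2.05), Kbtbd13 (-1.16) and Fbxo21 (-1.16) fell in KI hearts in all 12 settings. A pseudocount of 1 understates the change of Kbtbd13, which had 2.42 RPKM in KI sham and 0.544 RPKM in KI TAC hearts. Its difference reached log2 -2.27 in the alternative settings, and -1.74 between KI TAC and WT TAC hearts. The WT call of Rnf207 was lost without WT sham heart 1, WT TAC heart 7 or WT TAC heart 9, and that of Klhl41 without WT TAC heart 7. KI TAC against WT TAC gave 1 higher (Klhl41) and 2 lower (Kbtbd13, log2 -0.82, and Trim32, -0.49, called in 8 and 3 of 12 settings).

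Of 13 genes for ubiquitin and its activating and conjugating enzymes, limma called 0 in WT hearts (3 at an unadjusted p under 0.05, 0 by limma-voom). In KI hearts 4 rose and 1 fell. Ubb, a polyubiquitin gene, rose from 162 ± 57.6 to 387 ± 253 RPKM (log2 1.13, adjusted p = 0.0368, called in 7 of 12 settings), and Ube2d3 by log2 0.91 (adjusted p = 0.00446, in all 12). Rps27a (log2 0.65) and Ube2j1 (0.46) rose and Ube2d1 (-0.50) fell, each in 7 or fewer settings. Ubb was the gene called between the TAC groups (log2 1.24, adjusted p = 0.0428, in 6 settings).

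Regulators known to act on Fbxo32 and Trim63 in muscle, 19 tested of 22, held 1 fall in WT hearts (Klf15, log2 -1.40, adjusted p = 0.0217, in 8 of 12 settings, lost without WT sham heart 2 or 3 or WT TAC heart 7 or 10) and 6 falls and no rise in KI hearts, with a median of log2 -0.56 beside -0.10 for all genes. Foxo3, a FoxO factor that activates both genes, fell in KI hearts from 104 ± 38.3 to 27.7 ± 3.18 RPKM (log2 -1.82, adjusted p = 0.00133). Ppargc1a, a coactivator that restrains FoxO3, fell by 1.49 on the same scale. Both were called in all 12 settings, as was Acvr2b (-0.92), the receptor for myostatin. Tfeb (-1.03) was lost without KI TAC heart 6, Klf15 (-1.05) was called in 4 settings, and Akt2 (-0.56) in 9, lost without KI sham heart 3. KI TAC against WT TAC held 3 falls, Smad3 (-1.05), Foxo3 (-1.04) and Acvr2b (-0.67), called in 6, 3 and 4 of 12 settings. Smad3 was lost without WT TAC heart 7 or 9 or KI TAC heart 6, Acvr2b without those or KI TAC heart 5, and Foxo3 when any single heart of the 2 groups was left out.

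Genes that rise with Fbxo32 and Trim63 in wasting skeletal muscle did not go one way. Of 14 such genes 1 rose (Psmd11, in 4 of 12 settings) and 1 fell (Fbxo31, in 7) in WT hearts. This stands beside 11.6% of all genes called. In KI hearts 4 rose and 3 fell, beside 23.3% of all genes called. Pdk4, which blocks the use of pyruvate, rose in KI hearts from 139 ± 38.2 to 640 ± 356 RPKM (log2 2.08, adjusted p = 0.0315, in 7 of 12 settings), and Psmd11, a proteasome subunit, by log2 1.10 (in all 12). Gabarapl1 (0.95) and Fbxo30 (0.70) also rose, each in 9 settings. Fbxo21 (-1.16), the autophagy kinase gene Ulk1 (-0.96) and Fbxo31 (-0.88) fell, the last in 6 settings and the others in all 12. Between the TAC groups Pdk4 (log2 2.62) and Gabarapl1 (0.98) were higher in KI TAC hearts, each in 7 of 12 settings. Pdk4 already stood at 139 RPKM in KI sham and 48.7 RPKM in WT sham hearts (log2 1.54, adjusted p = 1.00).

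Of 18 genes for substrates and partners of the members, 16 were tested, and 3 rose and 2 fell in WT hearts. Flnc, the partner of Ky, rose from 148 ± 14.1 to 833 ± 410 RPKM (log2 2.34, adjusted p = 0.00833). Flna (log2 0.88) and Des (0.75) also rose, and Myh6 (-1.15) and Ckm (-1.05), whose products MuRF1 binds, fell. In KI hearts 4 rose and none fell: Flnc from 149 ± 32.5 to 2117 ± 1756 RPKM (log2 3.52, adjusted p = 0.000329), Hspb8 (1.30), Des (0.99) and Flna (0.67). Flnc was called in all 12 settings in both genotypes, Hspb8 and Des in all 12 and Flna in 6 in KI, and Flna, Des, Myh6 and Ckm in 8, 3, 10 and 11 in WT. Myh6 was lost without WT TAC heart 7 and Ckm without WT sham heart 1. KI TAC hearts were higher than WT TAC hearts in Tcap (log2 1.54), Hspb8 (1.15), Ckm (1.14) and Tnni3 (0.95), each lost without WT TAC heart 7 among others.

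Glucocorticoids act on Fbxo32 and Trim63 in skeletal muscle, and 12 genes that they induce in many tissues were read for that reason. In KI hearts 6 of 12 rose after TAC and none was called lower (median log2 1.05 beside -0.10). Among the 6 were Mt2 (5.06), Cdkn1a (3.37), Mt1 (2.77), Fkbp5 (2.30) and Errfi1 (2.15), all in every setting. Of those not called, Klf9 (151 RPKM in KI sham and 80.1 in KI TAC hearts) and Tsc22d3 (26.5 and 21.4) had lower means. The others not called had higher means after TAC. In WT hearts 1 rose (Mt2, log2 1.89, in 3 of 12 settings) and 2 fell (Ddit4, -1.40, in 3 settings, and Tsc22d3, -1.08, in 9). Ddit4 was lost without WT sham heart 2 or 3 or WT TAC heart 7 or 10. KI TAC hearts were higher than WT TAC hearts in 9 of 12 (median log2 1.65 beside -0.12), Mt2 by log2 3.16 and Sgk1 by 1.70 in every setting. The other 7 of these 9 calls were lost without WT TAC heart 7 or without KI TAC heart 6. Fbxo32 and Trim63 were not called between the TAC groups, as given above. Between sham groups and for the interaction, limma and limma-voom called 0 genes of every one of the 8 lists, whereas over 17 alternative settings the interaction called up to 7 glucocorticoid-responsive genes and up to 1 gene each of the other ligases, the wasting genes, the ASB family and the regulators. At an unadjusted p under 0.05 the sham groups differed in 1 gene of these lists, Pdk4, beside 0.329% of all genes. The interaction held 9 of the 12 glucocorticoid-responsive genes at that limit, 6 of 21 other ligases, 6 of 16 substrates and partners, 3 of 19 regulators, 2 of 14 wasting genes, 1 of 14 ASB genes, 1 of 13 genes for ubiquitin, E1 and E2, and 0 of 7 complex subunits, beside 14.8% of all genes.

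**Figure D4:**
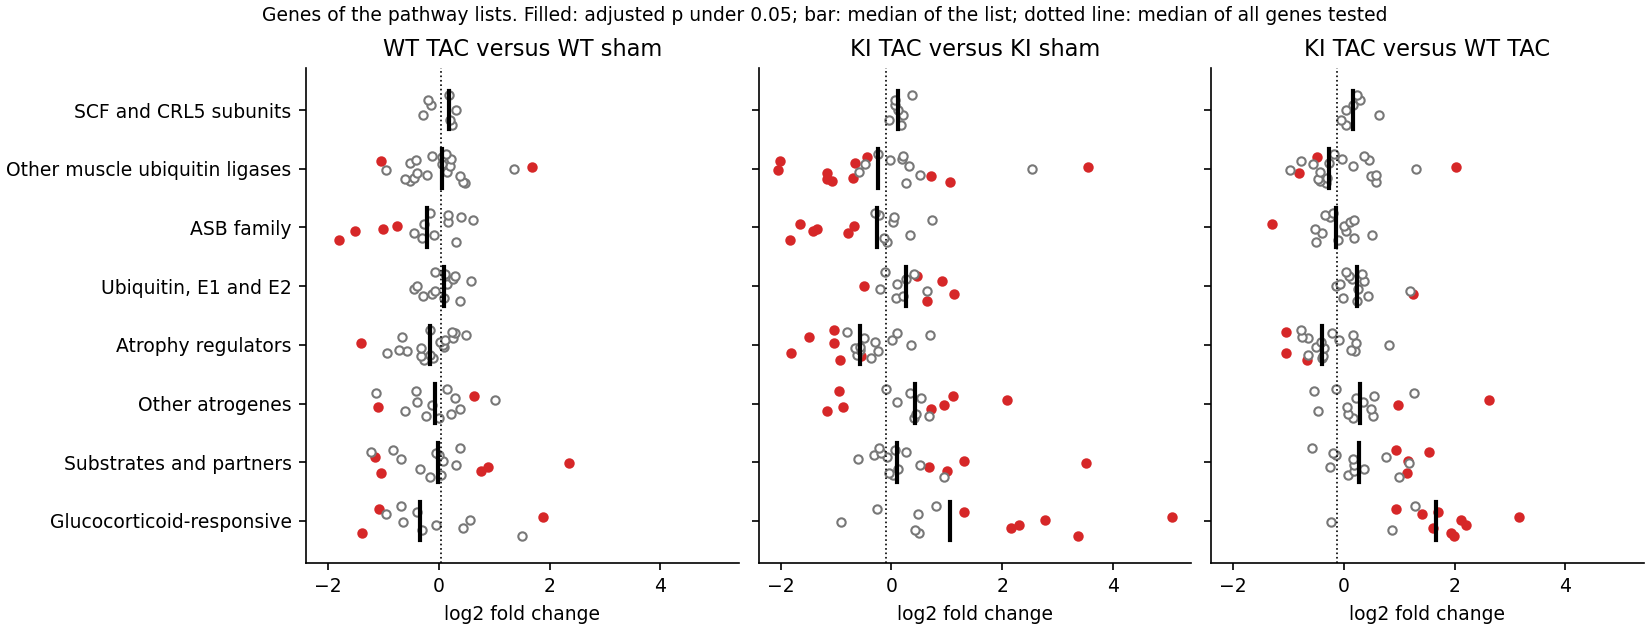
log2 fold change (horizontal axes) of each gene tested of the 8 pathway lists in WT TAC versus WT sham, KI TAC versus KI sham and KI TAC versus WT TAC. Filled points passed an adjusted p of 0.05, short bars are list medians and the dotted line is the median of all genes. No point of the SCF and CRL5 subunits is filled, the filled ASB points lie left of 0, and in KI TAC versus WT TAC 9 of 12 glucocorticoid-responsive genes are filled to the right.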

How the data were processed

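RNA of 12 mouse hearts was sequenced by the authors as poly(A)-selected, strand-specific libraries in single reads of 75 bases. Per the labels and the methods, reads were trimmed with Trimmomatic 0.39, mapped to GRCm38 with HISAT2 2.2.1, counted per Ensembl gene with htseq-count of HTSeq 0.6.1 and tested by the authors with edgeR 3.18.1. The deposited values are RPKM, 1 column per heart. This unit was read from the values, since the step from counts to the table and the filter on genes are not given in the sources used here. Multiplied by the exon lengths of GENCODE M21, low values were whole multiples of 1 read (97.6% or more within 0.02 reads), which gave the depth of each library.

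From the deposited RPKM, log2(RPKM + 1) was computed for 11240 of 13552 genes that reached 1 RPKM in 3 or more hearts. limma 3.58.1 in R 4.3.3 (lmFit, contrasts.fit, eBayes with trend) was fitted to all 12 hearts in 4 groups, and p-values were adjusted by Benjamini-Hochberg over all genes tested. A count test had been planned for a table of counts and was not used. Groups and mouse numbers came from the labels. Alternatives were a pseudocount of 0.1, no filter, quantile normalization, median-ratio scaling, only the groups compared, limma-voom on recovered reads, a replicate block for the sham groups and leaving out each heart. Counts and genes of the lists under these settings were an alternative chosen after seeing the data. The fit was tested on simulated data.

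The members and gene lists were chosen with earlier results of these data known. Named genes were the 6 members, the 3 genes nearest to each in pattern (predicted genes and pseudogenes passed over), and up to 5 called genes per list and comparison with the largest changes; list genes named beyond these were added to complete a count. Promoter sequences came from RefSeq (GRCm38.p6). No separate batch is given in the labels. Sequence windows and figures were made in Python 3.11.15 (pandas 2.3.3, matplotlib 3.10.9).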

Additional observations from a re-analysis of the deposited data

How the results depend on the processing

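Called differences of members were few and rested on 3 hearts a group. Of the 5 comparisons, WT TAC against WT sham called 2 members, and 1 with a pseudocount of 0.1, with quantile normalization, with only the groups compared and with limma-voom. Median-ratio scaling called 1 member (Trim54) in KI TAC against WT TAC. Only the groups compared gave 216 genes in KI TAC against WT TAC, where the fit of all hearts gave 1242, and 5 between the sham groups, where it gave 2. Fitting only the groups compared also leaves fewer hearts in the fit, and the cause of these changes was not tested. Leaving out 1 heart gave 596 to 1525 genes and 0 to 2 members in WT TAC against WT sham, 1453 to 2741 and 0 to 2 in KI TAC against KI sham, 162 (without WT TAC heart 7) to 1822 in KI TAC against WT TAC, and 0 to 240 (without WT TAC heart 9) in the interaction, with 182 without KI TAC heart 7 and 8 without WT TAC heart 10. Signs of members that were not called turned in some settings. In KI TAC against WT TAC, Trim55 was 0.061 (log2) with median-ratio scaling and -0.26 to 0.16 with 1 heart left out, Fbxo32 -0.76 to 0.081 and Trim63 -0.21 to 0.58. In the interaction, Trim55 was 0.059 with quantile normalization, 0.13 with median-ratio scaling and -0.20 to 0.21 with 1 heart left out, and Trim63 -0.29 to 0.50. Between sham groups the ranges with 1 heart left out were -0.024 to 0.47 for Fbxo32, -0.048 to 0.27 for Trim63, -0.45 to 0.25 for Trim54, -0.086 to 0.14 for Asb2 and -0.098 to 0.30 for Ky. Median-ratio scaling moved the share of higher genes among those called from 36.8% to 51.5% in KI TAC against KI sham and from 26.4% to 51.6% in KI TAC against WT TAC (46% with quantile normalization), and quantile normalization moved it from 60.2% to 48.1% in WT TAC against WT sham. Sham hearts share the numbers 1, 2 and 3, but deviations of same-numbered hearts correlated at -0.225, -0.302 and 0.44, so the numbers were not taken as pairs. With the replicate block 0 genes and 0 members were called between the sham groups, and no other comparison could carry it. Of 83 calls of list genes, 34 were made in every setting and none changed sign. For Ky, 29 to 108 reads per KI TAC heart limit the precision of its level.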
